A study of Mus musculus with 6 samples.

Results

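The cadherins and protocadherins are calcium-dependent adhesion proteins of the cell surface. They were taken here as every gene of the deposited tables whose symbol is Cdh followed by a number or starts with Pcdh, which gave 85 genes (84 symbols, since 2 gene IDs carry the symbol Pcdha11) of 27502. There were 21 cadherins, 12 protocadherin genes outside the clusters, and 52 clustered protocadherins, of which 11 were alpha, 20 beta and 21 gamma genes. RNA was measured in vascular smooth muscle cells cultured from mouse aorta, in 3 samples given short interfering RNA against Ezh2 (siEzh2) and 3 control samples, at 48 hours. The labels name no strain, age or sex of the mice, do not say what the control cells received, and leave it unsaid if replicates are separate animals or cultures, so the p-values reflect the spread among the samples alone, and that spread may be technical.

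Classical cadherins (types I and II) join cells by binding a like molecule on the neighbouring cell, and their tails bind β-catenin and p120 catenin. α-catenin then links the complex to actin. N-cadherin is the best known cadherin of vascular smooth muscle, E-cadherin that of epithelium and VE-cadherin that of endothelium. Protocadherins lack this catenin-binding tail. The non-clustered δ-protocadherins and the clustered α, β and γ genes are best known from the nervous system, where each cell chooses a few promoters of the clusters. Ezh2 is the main methyltransferase of Polycomb repressive complex 2, which places the repressive histone mark H3K27me3.

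Ezh2 (ENSMUSG00000029687) had 3.41, 3.59 and 3.88 FPKM (reads or fragments scaled by exon length and library size) in control and 1.20, 1.09 and 1.05 FPKM after siEzh2. The samples held between 16080005 and 18753124 reads, recovered from the steps of the low values, and siEzh2 sample 1 had the fewest. The smooth muscle marker Acta2 had a control mean of 699 FPKM, while Myh11, Cnn1 and Tagln, which mark contractile cells, had 1.83, 1.14 and 0.253 FPKM. For Tagln 67.9% of the exon length faces antisense genes, so that its level is uncertain. The summed level of the 7 smooth muscle markers was 717 to 746 FPKM in control and 542 to 579 FPKM in siEzh2 samples. In control nearly all of it was Acta2. Of the 5 of these markers that were tested, 4 were lower and none higher. Of 13 mitochondrially encoded genes 8 were lower, with none higher. By the test described below, 22.7% of all tested genes were lower and 24.1% higher. Whether these shifts have a part in the results below was not tested.

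Promoter sequences are shown for 4 members that were higher in siEzh2 samples, because their CG content differed widely. The windows below are from RefSeq (GRCm38.p6, the assembly also called mm10), 5′ to 3′ on the strand of the gene, and cover the 250 bases before its start, where no exon is annotated in GENCODE M21. Capitals mark each CG pair, which reads the same on both strands, because CG-rich promoters are the usual sites of Polycomb repression. The first 3 genes passed the test described below, and Cdh6 lay under its level filter.
Pcdh9 (chr14:93890680-93890929, minus strand): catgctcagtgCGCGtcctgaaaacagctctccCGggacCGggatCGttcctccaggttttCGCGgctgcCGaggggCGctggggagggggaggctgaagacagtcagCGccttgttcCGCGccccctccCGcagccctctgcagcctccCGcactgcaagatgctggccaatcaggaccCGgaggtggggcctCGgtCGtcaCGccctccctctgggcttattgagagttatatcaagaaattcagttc
Pcdh17 (chr14:84443313-84443562, plus strand): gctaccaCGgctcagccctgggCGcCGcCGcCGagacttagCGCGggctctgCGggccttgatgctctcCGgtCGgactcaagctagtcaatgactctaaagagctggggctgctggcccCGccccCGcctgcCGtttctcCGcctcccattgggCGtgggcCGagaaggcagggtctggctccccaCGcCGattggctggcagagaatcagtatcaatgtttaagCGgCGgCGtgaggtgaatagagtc
Pcdh20 (chr14:88471397-88471646, minus strand): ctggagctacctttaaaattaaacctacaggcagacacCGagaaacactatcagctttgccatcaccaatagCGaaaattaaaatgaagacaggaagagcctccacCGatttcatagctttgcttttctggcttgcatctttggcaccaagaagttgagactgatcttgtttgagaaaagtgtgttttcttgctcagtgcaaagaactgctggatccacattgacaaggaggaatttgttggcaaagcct
Cdh6 (chr15:13173676-13173925, minus strand): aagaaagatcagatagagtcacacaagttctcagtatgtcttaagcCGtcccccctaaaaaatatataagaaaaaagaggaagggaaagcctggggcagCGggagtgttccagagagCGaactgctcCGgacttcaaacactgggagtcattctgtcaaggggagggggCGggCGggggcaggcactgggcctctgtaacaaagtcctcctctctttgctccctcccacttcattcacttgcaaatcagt

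These windows held 21 CG pairs in Pcdh17, 18 in Pcdh9, 6 in Cdh6 and 3 in Pcdh20. Over all 32851 RefSeq windows of this length the median was 6. At least as many CG pairs as in Pcdh17 stood in 16.3% of windows, and at least as many as in Pcdh20 in 71.0%. Pcdh10, which also rose, had 22, with 113 bases of its window in annotated exons. CG-rich windows were not particular to members that rose, since Pcdh18 and Pcdh19, which did not pass the test, had 23 and 16. Pcdh7, which fell, had 7, with its whole window in exons. The windows matched 21 member symbols, none of them a clustered protocadherin or a tested cadherin. Of these 22 windows 50% held 10 or more CG pairs, against 37.8% of all windows. The share differed by kind of gene, with 4 of 12 cadherin windows and 7 of 10 windows of non-clustered protocadherins. The median CG pairs were 6.5 and 17. Overlapping windows of Pcdh9 were counted separately in these numbers.

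The test asked which members differed between siEzh2 and control samples. limma was run on log2(FPKM + 1) for every gene whose mean reached 1 FPKM in either group, and genes were called at an adjusted p (Benjamini-Hochberg over all tested genes) under 0.05. Of the 85 members 22 passed this filter, and 5 of these only through their siEzh2 mean, so counts over the 22 describe them and do not stand for the family. Among the 22, 7 were higher, 3 were lower and 12 did not pass. That is 45.5% called, where 46.9% of all 11869 tested genes were called (24.1% higher and 22.7% lower), so the share of changed members was near the background. Their median log2 fold change was 0.08, against 0.01 over all tested genes. Outside the clusters 7 of 11 tested members were called and inside them 3 of 11. The tested members outside the clusters had a median of 7090 reads over the 6 samples and those inside 760, and a difference between these shares was not tested. The 3 siEzh2 values did not overlap the 3 control values in 13 of the 22, where 58.1% of all tested genes did not overlap. limma-voom on recovered reads called 6 of the 22 higher and 5 lower, where it called 26.9% of genes higher and 25.6% lower. All log2 fold changes below are siEzh2 minus control on the log2(FPKM + 1) scale, where changes of low genes appear smaller than they are.

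**Figure D1:**
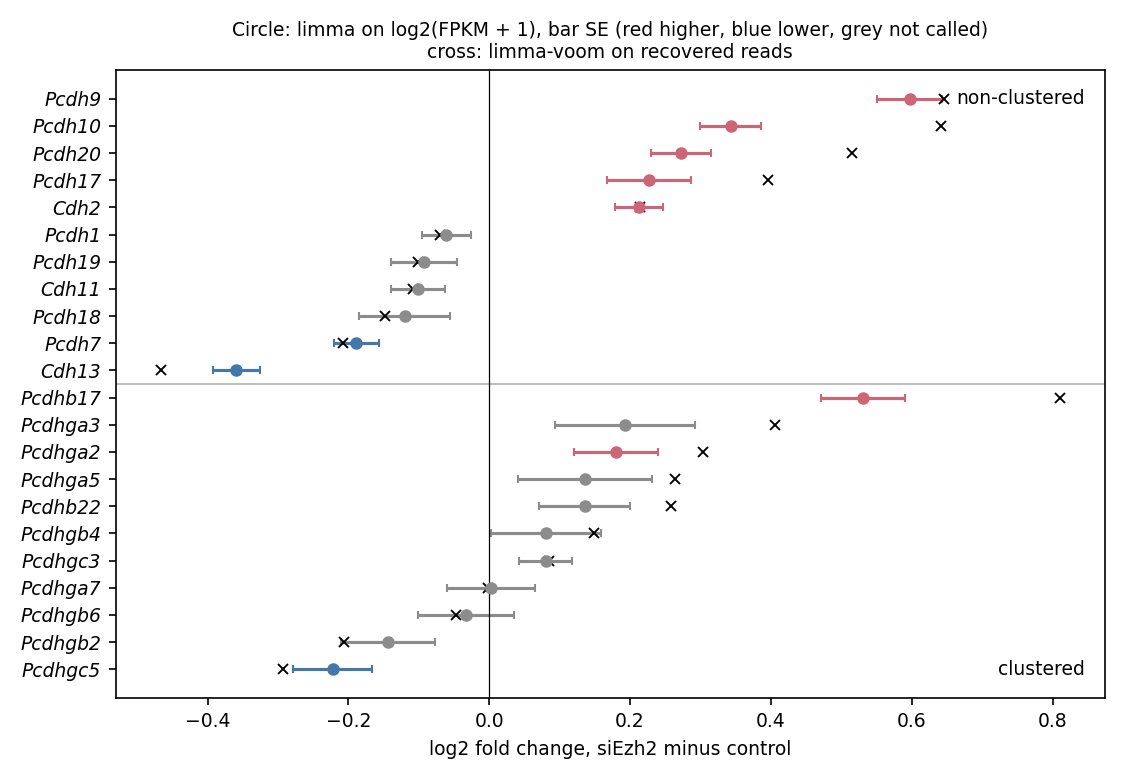
Log2 fold change, siEzh2 minus control, of the 22 members whose mean reached 1 FPKM in a group (x axis; genes on the y axis, non-clustered above the line and clustered below). Circles with SE bars are limma on log2(FPKM + 1), red for higher, blue for lower and grey for not called, and crosses are limma-voom on recovered reads; Pcdh9 lies farthest to the right by the circles, at 0.60, and Cdh13 farthest to the left, at −0.36.

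Among classical cadherins, Cdh2, which encodes N-cadherin, was by far the most abundant member and rose slightly. Control samples held 91.1, 88.3 and 89.5 FPKM and siEzh2 samples 106, 104 and 102 FPKM. The groups did not overlap, and all 3 siEzh2 samples lay above 100 FPKM. Cdh2 rose 1.16 times, from 89.6 ± 1.41 to 104 ± 2.02 FPKM (SD, n = 3 each, log2 fold change 0.21, SE 0.0341, limma adjusted p = 0.00352). In these bulk samples more cells of a kind and more RNA per cell cannot be told apart, which holds for every result here.

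Cdh11, the type II cadherin of mesenchymal cells, was the next cadherin by level and leaned the other way. It had 16.2, 16.8 and 16.9 FPKM in control and 15.9, 15.0 and 15.4 FPKM in siEzh2 samples. The groups did not overlap, but the difference missed the threshold (log2 fold change −0.10, SE 0.0380, limma adjusted p = 0.0713), while limma-voom on recovered reads called it (adjusted p = 0.0123). The ratio of Cdh2 to Cdh11 in FPKM was 5.64, 5.27 and 5.30 in control and 6.70, 6.93 and 6.62 in siEzh2 samples. These ratios had to separate, since both genes had groups without overlap and moved in opposite directions. Cdh2 held 77.5% to 78.5% of all reads of the 21 cadherins in control and 81.3% to 82.1% in siEzh2 samples.

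Cdh13, or T-cadherin, which lacks the cytoplasmic tail and is held in the membrane by a lipid anchor (GPI), was the only other cadherin above 1 FPKM, and it fell. Its levels were 3.87, 3.998 and 3.90 FPKM in control and 2.76, 2.88 and 2.87 FPKM in siEzh2 samples. The 2 groups were far apart next to the spread within them. It fell 1.38 times, from 3.93 ± 0.0647 to 2.84 ± 0.0679 FPKM (SD, n = 3 each, log2 fold change −0.36, SE 0.0333, limma adjusted p = 0.000474).

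**Figure D2:**
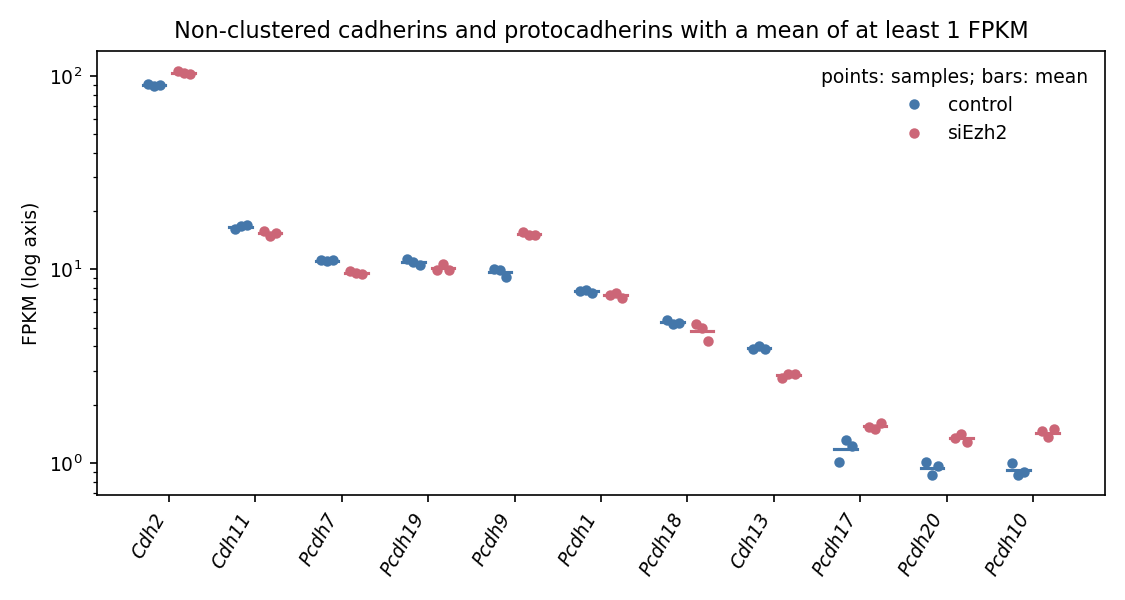
FPKM (y axis, log scale) of the 11 non-clustered members whose mean reached 1 FPKM in a group, ordered by control mean; points are samples and bars are group means, blue for 3 control and red for 3 siEzh2 samples. Cdh2 stands near 100 FPKM, and Pcdh9 moves from the level of Pcdh19 in control to that of Cdh11 in siEzh2 samples.

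The δ1-protocadherins, whose long tails carry motifs shared by the subfamily, split in direction. Pcdh9 had 10.1, 9.94 and 9.13 FPKM in control and 15.6, 15.0 and 15.1 FPKM in siEzh2 samples, a clean separation. It rose 1.56 times, from 9.73 ± 0.523 to 15.2 ± 0.317 FPKM (SD, n = 3 each, log2 fold change 0.60, SE 0.0463, limma adjusted p = 0.000242), and was the 1 member called with a minimum change of 1.5 times on the log2(FPKM + 1) scale. Pcdh7, which encodes a protein known to bind protein phosphatase 1α, had 11.1, 11.03 and 11.2 FPKM in control and 9.83, 9.54 and 9.50 FPKM in siEzh2 samples. It fell 1.15 times (log2 fold change −0.19, SE 0.0321, limma adjusted p = 0.00442), and 21.1% of its exon length faces an antisense gene. Reads there could have been counted with Pcdh7 or left out, since the way of counting is not given. The ratio of Pcdh9 to Pcdh7 was 0.819 to 0.908 in control and 1.57 to 1.59 in siEzh2 samples, so their order was turned around. Both genes had groups without overlap and moved in opposite directions, so these ratios had to separate. Pcdh1, the δ1 member known from airway epithelium, had 7.74, 7.85 and 7.59 FPKM in control and 7.41, 7.54 and 7.15 FPKM in siEzh2 samples. Its groups did not overlap, yet it did not pass (log2 fold change −0.06, limma adjusted p = 0.204).

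Of the δ2-protocadherins, the 2 low tested genes rose and the 2 more abundant ones did not pass. Pcdh10, which is often silenced by promoter methylation in tumours, had 0.999, 0.865 and 0.898 FPKM in control and 1.46, 1.36 and 1.49 FPKM in siEzh2 samples. This was a rise of 1.56 times with no overlap, the same ratio as for Pcdh9 (log2 fold change 0.34, SE 0.0428, limma adjusted p = 0.00136, from 813 and 1164 reads). Pcdh17 had 1.01, 1.32 and 1.22 FPKM in control and 1.54, 1.503 and 1.61 FPKM in siEzh2 samples, 1.31 times higher (log2 fold change 0.23, limma adjusted p = 0.0218). Control sample 1 was the lowest, and the call was lost without siEzh2 sample 1 (adjusted p = 0.0533) or siEzh2 sample 3 (0.0645), with quantile normalization (0.0553), with no filter (0.0506) and on log2(FPKM + 0.1) with a filter of 0.1 FPKM (0.0584).

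Pcdh19, an X-linked gene whose loss causes an epilepsy and whose product is known to act together with N-cadherin, was at 11.4, 10.9 and 10.5 FPKM in control and 9.88, 10.7 and 9.95 FPKM in siEzh2 samples. The groups overlapped and the limma adjusted p was 0.152, while limma-voom gave 0.0419. Pcdh18 was at 5.48, 5.202 and 5.29 FPKM in control and 5.22, 4.97 and 4.29 FPKM in siEzh2 samples, also with overlap (log2 fold change −0.12, limma adjusted p = 0.177). Pcdh20, a non-clustered member of neither group, behaved more like Pcdh10. It had 1.01, 0.863 and 0.961 FPKM in control and 1.35, 1.41 and 1.29 FPKM in siEzh2 samples, a rise of 1.43 times with no overlap (log2 fold change 0.27, SE 0.0428, limma adjusted p = 0.00324). Pcdh10 and Pcdh20 are among the 5 members that passed the filter only through the siEzh2 group, so that they had to be higher to be tested at their control levels.

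The clustered genes need a separate reading, because the members of the alpha and of the gamma cluster each join a first exon of their own to shared constant exons. Between 38.9% and 59.9% of the exon bases of each alpha gene, and between 31.5% and 66.8% of those of each gamma gene, lie in exons of another gene on the same strand, whereas beta genes have single exons of their own (9.67% of Pcdhb21 and 6.88% of Pcdhb22 are shared between the 2). Reads in constant exons were not credited to every gene that holds them: Pcdha1 had 1 read over the 6 samples, while Pcdhac2, with the same constant exons, had 273. The FPKM of alpha and gamma genes divides by a length that includes the constant exons and is therefore low next to other genes, equally in all 6 samples.

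The alpha cluster was almost silent. Its 11 genes had 348 reads in all, none reached 1 FPKM, and Pcdhac2 alone gave 69.9% to 83.3% of the reads of a sample. Pcdhac2, a C-type gene that does not take part in the random promoter choice, had 0.409, 0.443 and 0.457 FPKM in control and 0.348, 0.445 and 0.498 FPKM in siEzh2 samples, with overlap. Each of the other 10 alpha genes had a mean under 0.1 FPKM in both groups and at most 33 reads over the 6 samples.

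In the beta cluster 1 gene stood out. Pcdhb17 had 1.35, 1.41 and 1.58 FPKM in control and 2.33, 2.52 and 2.76 FPKM in siEzh2 samples. It rose 1.75 times with no overlap, from 1.45 ± 0.121 to 2.54 ± 0.214 FPKM (SD, n = 3 each, log2 fold change 0.53, SE 0.0598, limma adjusted p = 0.000932, from 375 and 605 reads), the largest FPKM ratio among the 22 tested members. Its share of all beta reads was 22.9% to 26.1% in control and 33.5% to 34.1% in siEzh2 samples. The remaining beta genes together had 19.2 to 22.0 CPM (reads scaled to library size) in control and 21.6 to 25.2 in siEzh2 samples, which overlap. Pcdhb22, the other tested beta gene, had 0.870, 1.08 and 0.970 FPKM in control and 1.21, 1.01 and 1.29 FPKM in siEzh2 samples, with overlap (limma adjusted p = 0.132). Its mean reached the filter only in the siEzh2 group. The neighbours of Pcdhb17 in gene order, Pcdhb16 and Pcdhb18, had means of 0.692 and 0.293 FPKM in control and 0.708 and 0.265 FPKM in siEzh2 samples, which also overlapped.

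The gamma cluster had the most reads of the 3 clusters, and 2 of its 3 C-type genes, Pcdhgc3 and Pcdhgc5, had its highest levels, while Pcdhgc4 had means of 0.813 and 0.730 FPKM. Pcdhgc3 had 16.5, 16.8 and 15.7 FPKM in control and 17.2, 17.2 and 17.5 FPKM in siEzh2 samples. It gave 44.0% to 46.7% of all gamma reads in each sample, and 28.4% of its exon length also faces an antisense gene. Its groups did not overlap but the difference did not pass (log2 fold change 0.08, SE 0.0378, limma adjusted p = 0.128). Pcdhgc5 had 3.69, 3.28 and 3.23 FPKM in control and 2.70, 2.95 and 2.65 FPKM in siEzh2 samples. It fell 1.23 times with no overlap (log2 fold change −0.22, SE 0.0561, limma adjusted p = 0.0193), and the call was lost without siEzh2 sample 1 (adjusted p = 0.0570) or siEzh2 sample 3 (0.0587) and on log2(FPKM + 0.1) with a filter of 0.1 FPKM (0.0516). The ratio of Pcdhgc3 to Pcdhgc5 was 4.47 to 5.12 in control and 5.83 to 6.62 in siEzh2 samples. This ratio also had to separate, since neither gene had overlapping groups and they moved in opposite directions. Counted per kilobase of exon not shared on the same strand, Pcdhgc3 had 26.6 and 28.2 CPM in the 2 groups, and Pcdhgc5 had 5.63 and 4.59.

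Of the A and B-type gamma genes, Pcdhga2 alone was called, and weakly. It had 1.33, 1.37 and 1.26 FPKM in control and 1.43, 1.66 and 1.81 FPKM in siEzh2 samples (log2 fold change 0.18, SE 0.0596, limma adjusted p = 0.0480). It did not pass when control sample 1 (adjusted p = 0.102), 2 (0.0828) or 3 (0.129) was left out, when siEzh2 sample 2 (0.117) or 3 (0.110) was left out, or with limma-voom on reads (0.0641). Pcdhgb2, the highest of this group, had 2.50, 2.85 and 2.74 FPKM in control and 2.61, 2.33 and 2.11 FPKM in siEzh2 samples, with overlap. Its limma adjusted p was 0.124, and 0.0490 without siEzh2 sample 1. Pcdhgb6 (1.88, 1.75 and 1.53 FPKM in control, 1.49, 1.82 and 1.67 in siEzh2 samples), Pcdhga7 (1.36, 1.37 and 1.35 against 1.39, 1.17 and 1.55) and Pcdhgb4 (1.28, 0.953 and 1.19 against 1.35, 1.08 and 1.36) overlapped and did not pass.

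Pcdhga3 and Pcdhga5 reached the filter only in the siEzh2 group. Pcdhga3 had 0.754, 1.14 and 0.673 FPKM in control and 1.09, 1.001 and 1.24 FPKM in siEzh2 samples, and passed only without control sample 2 (limma adjusted p = 0.158 with it and 0.0173 without). Pcdhga5 had 0.775, 0.777 and 0.889 FPKM in control and 1.17, 1.12 and 0.714 FPKM in siEzh2 samples, and passed only without siEzh2 sample 3 (0.281 with it and 0.0129 without). In Pcdhga3 control sample 2 lay among the siEzh2 values, and in Pcdhga5 siEzh2 sample 3 lay below every control value. All gamma genes without Pcdhgc3 summed to 107 to 115 CPM in control and 108 to 110 in siEzh2 samples.

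**Figure D3:**
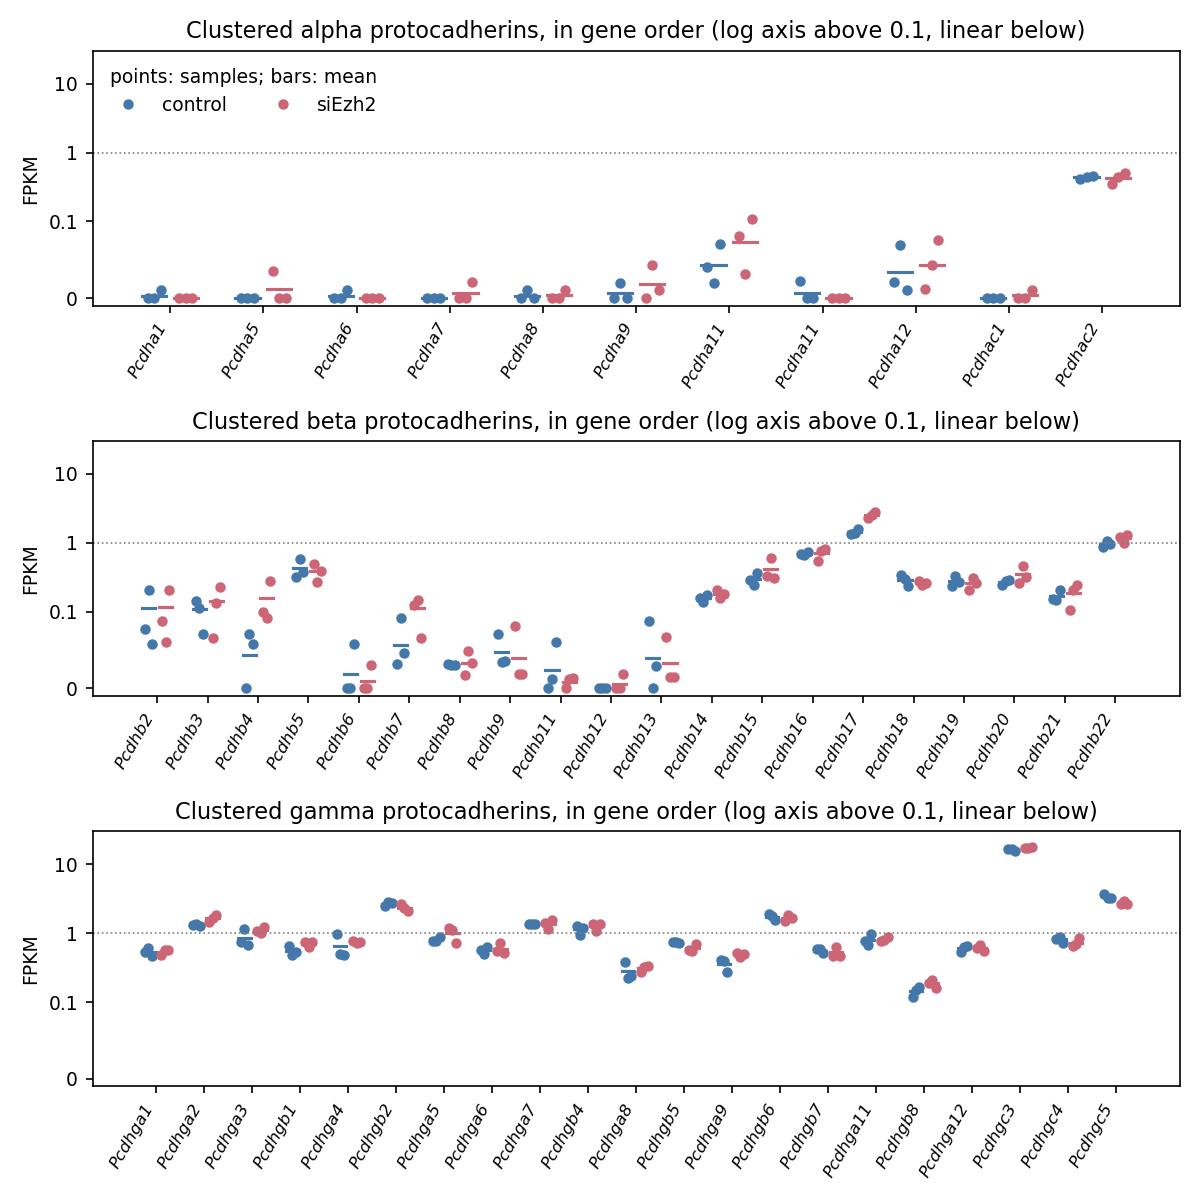
FPKM (y axis, log above 0.1 and linear below) of the 52 clustered protocadherins, ordered along each cluster on the x axis; points are samples and bars are group means, blue for 3 control and red for 3 siEzh2 samples, and the dotted line marks the filter of 1 FPKM. Pcdhgc3 is the only clustered gene above 10 FPKM, and Pcdhb17 is the beta gene whose groups stand apart above that line.

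The other 63 members had means under 1 FPKM in both groups. In 28 of them both means were under 0.1 FPKM, with at most 56 reads over the 6 samples, and 25 members had fewer than 30 reads. E-cadherin (Cdh1) was in this range, with 2, 0 and 1 reads in control and 2, 1 and 3 reads in siEzh2 samples, as were the neural cadherins Cdh8, Cdh10, Cdh12 and Cdh20. Cdh12 had 0, 1 and 0 reads in control and 2, 4 and 3 reads in siEzh2 samples, too few for either of the fits below. Of the 35 members with a higher mean between 0.1 and 1 FPKM, 7 had groups that did not overlap (20.0%), where 21.6% of all 6804 genes in that range did not overlap (14.4% higher and 7.17% lower). These were Cdh3, Cdh6, Pcdh11x, Pcdhb4 and Pcdhga9, higher in siEzh2 samples, and Pcdh12 and Pcdhgb5, lower. Cdh3 and Pcdhb4 reached 0.1 FPKM only through their siEzh2 means, so they had to be higher to enter this range at their control levels.

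For such genes 2 further fits were made. One was limma on log2(FPKM + 0.1) for genes whose mean reached 0.1 FPKM, which called 25.0% of 18673 genes (13.5% higher and 11.5% lower), and 7 of 57 members higher and 3 lower. The other was limma-voom on genes with at least 30 recovered reads, chosen after the values had been seen, which called 42.9% of 15747 genes (22.5% higher and 20.4% lower), and 11 of 60 members higher and 5 lower. Cdh6, Pcdh12 and Pcdh11x were called by both, and Cdh3, Pcdhb4 and Cdh24 by limma-voom only.

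Cdh6, a type II cadherin of kidney and neural crest, showed the largest rise among these 3. It had 24, 19 and 22 reads in control and 47, 65 and 60 reads in siEzh2 samples. No siEzh2 sample came near a control sample, and the mean rose 2.87 times, from 0.130 ± 0.0168 to 0.372 ± 0.0440 FPKM (SD, n = 3 each, limma adjusted p = 0.00335, limma-voom adjusted p = 2.27e-05). Pcdh11x, an X-linked δ1 gene, rose 1.24 times, from 0.738, 0.779 and 0.780 FPKM to 0.918, 1.004 and 0.927 FPKM (limma adjusted p = 0.0205, limma-voom adjusted p = 0.0133). It lay just under the filter of 1 FPKM.

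Pcdh12, a protocadherin known from endothelium and placenta, fell. It had 46, 29 and 50 reads in control and 10, 14 and 18 reads in siEzh2 samples. The groups did not overlap, with control sample 2 (0.255 FPKM) nearest to siEzh2 sample 3 (0.171 FPKM). The mean fell 2.75 times, from 0.372 ± 0.102 to 0.135 ± 0.0342 FPKM (SD, n = 3 each, limma adjusted p = 0.0263, limma-voom adjusted p = 0.00115). VE-cadherin (Cdh5), the defining cadherin of endothelium, had 15, 11 and 26 reads in control and 14, 15 and 13 reads in siEzh2 samples, which overlap (limma-voom adjusted p = 0.877). The 9 endothelial markers moved both ways beside it: of the 2 that were tested Kdr was higher and Emcn lower. Cldn5 was at 0 in all siEzh2 samples, where a count of 0 allows up to 3 reads. The summed level of the 9 markers was 4.06 to 4.25 FPKM in control and 4.85 to 5.42 FPKM in siEzh2 samples. Their part in the fall of Pcdh12 was not tested.

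Cdh3 (P-cadherin, of basal epithelium) had 3, 0 and 6 reads in control and 7, 13 and 18 reads in siEzh2 samples (limma-voom adjusted p = 0.00276, limma adjusted p = 0.0661). Pcdhb4 had 0, 5 and 4 reads in control and 6, 6 and 18 reads in siEzh2 samples (limma-voom adjusted p = 0.0174, limma adjusted p = 0.170), with siEzh2 sample 3 far above the others. Both Cdh3 and Pcdhb4 entered the limma fit only through their siEzh2 means. Cdh24, a type II cadherin, had 41, 33 and 43 reads in control and 60, 40 and 68 reads in siEzh2 samples, with overlap (limma-voom adjusted p = 0.0422, limma adjusted p = 0.143). Beside Cdh3, the 6 epithelial markers summed to 3.801 to 4.79 FPKM in control and 8.93 to 10.6 FPKM in siEzh2 samples, nearly all of it Krt19, while Krt18 was at 0.0127 and 0.0264 FPKM. Their part in the values of Cdh3 was not tested.

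Cdh19, a cadherin of Schwann cells and their precursors, had 29, 24 and 15 reads in control and 20, 18 and 21 reads in siEzh2 samples, with overlap. The 6 markers of glia and neural crest summed to 8.19 to 9.74 FPKM in control and 4.96 to 5.68 FPKM in siEzh2 samples, most of it S100b. Cdh17 (0.394 and 0.485 FPKM), Cdh18 (0.747 and 0.848) and Cdh26 (0.572 and 0.524) were the remaining cadherins whose mean reached 0.1 FPKM, given as control and siEzh2 means, and none of them passed in either fit. The same held for the beta genes Pcdhb2, Pcdhb3, Pcdhb5, Pcdhb7, Pcdhb14, Pcdhb15, Pcdhb16, Pcdhb18, Pcdhb19, Pcdhb20 and Pcdhb21, and for the gamma genes Pcdhga1, Pcdhga4, Pcdhga6, Pcdhga8, Pcdhga9, Pcdhga11, Pcdhga12, Pcdhgb1, Pcdhgb5, Pcdhgb7, Pcdhgb8 and Pcdhgc4. Pcdhga9 had 0.358 ± 0.0765 FPKM in control and 0.491 ± 0.0288 FPKM in siEzh2 samples, and Pcdhgb5 had 0.732 ± 0.0184 and 0.604 ± 0.0761 FPKM (SD, n = 3 each).

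**Figure D4:**
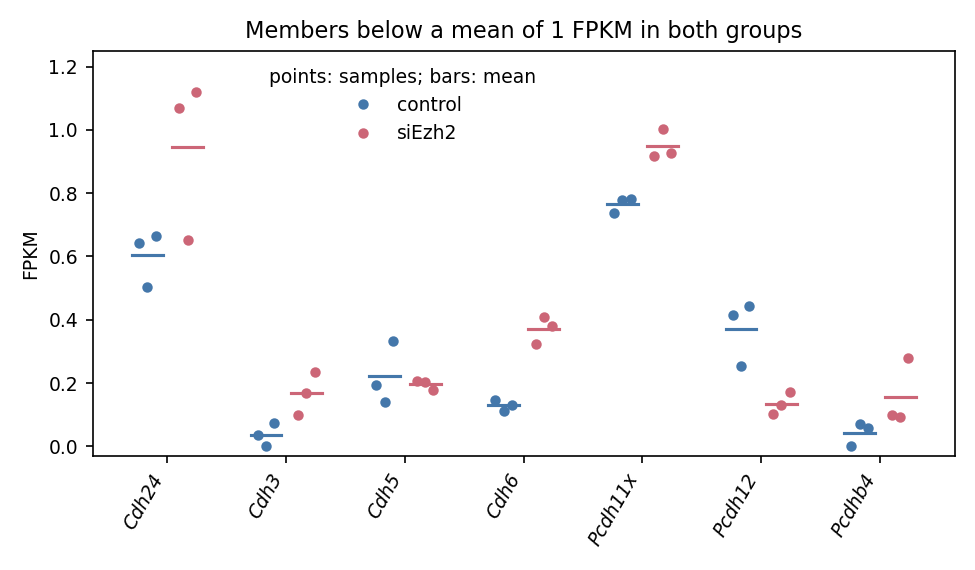
FPKM (y axis) of 7 members with a mean under 1 FPKM in both groups; points are samples and bars are group means, blue for 3 control and red for 3 siEzh2 samples. Cdh6 and Pcdh11x are higher and Pcdh12 is lower in every siEzh2 sample, while the values of Cdh5 and Cdh24 overlap.

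The genes that work with cadherins were taken from 6 lists with 76 symbols, of which 72 were in the tables and 48 were tested. Of these 14 were higher (29.2%) and 15 lower (31.3%), with a median log2 fold change of −0.02. In the whole test 24.1% of genes were called higher and 22.7% lower, and the counts of the single lists below, each of at most 11 tested genes, are to be read beside these shares. Among the catenins and plakophilins, which bind cadherin tails, 2 of 8 tested genes were higher and 4 lower. Ctnna1 (α-catenin), the link to actin, rose from 74.8 ± 0.813 to 86.8 ± 0.747 FPKM, and Jup (plakoglobin), which takes the place of β-catenin in desmosomes, from 6.49 ± 0.0705 to 8.84 ± 0.197 FPKM (SD, n = 3 each, limma adjusted p = 0.00249 and 0.000334). Ctnnb1 (β-catenin) fell from 81.4 ± 0.714 to 69.8 ± 1.06 FPKM (SD, n = 3 each, limma adjusted p = 0.00246), with 14.6% of its exon length facing an antisense gene. Thus Cdh2 and Ctnna1 were each 1.16 times higher while Ctnnb1 was 1.17 times lower. Ctnnd1 (p120 catenin) fell 1.24 times to 2.54 ± 0.181 FPKM, and 61.2% of its exon bases are shared with another gene on its strand, so that its level is uncertain. Arvcf, a relative of p120, fell 1.38 times and the α-catenin-like Ctnnal1 1.33 times.

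Among other junction partners 3 of 11 tested genes were higher and 4 lower. Vcl (vinculin), which binds stretched α-catenin, was 1.62 times lower with 25.5% of its exon length facing an antisense gene, and Lima1, an actin-bundling protein of the junction, was 1.26 times lower. The adhesion molecules Nectin1 and Nectin3, which bind each other across cells, rose 1.31 and 1.32 times, whereas Nectin2 of the same family, named after its values were seen, fell from 16.6 ± 1.16 to 13.4 ± 0.234 FPKM (SD, n = 3 each, limma adjusted p = 0.00603). Of the genes of cleavage and turnover 4 of 9 were higher and 2 lower. Ncstn (nicastrin), a subunit of the γ-secretase that cuts cadherin stumps, rose 1.43 times to 68.6 ± 2.16 FPKM (SD, n = 3), while Psen2, a catalytic subunit of it, fell by 0.18 on the log2 scale. Numbl rose by 0.34 and Adam15, a metalloprotease, by 0.18.

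**Figure D5:**
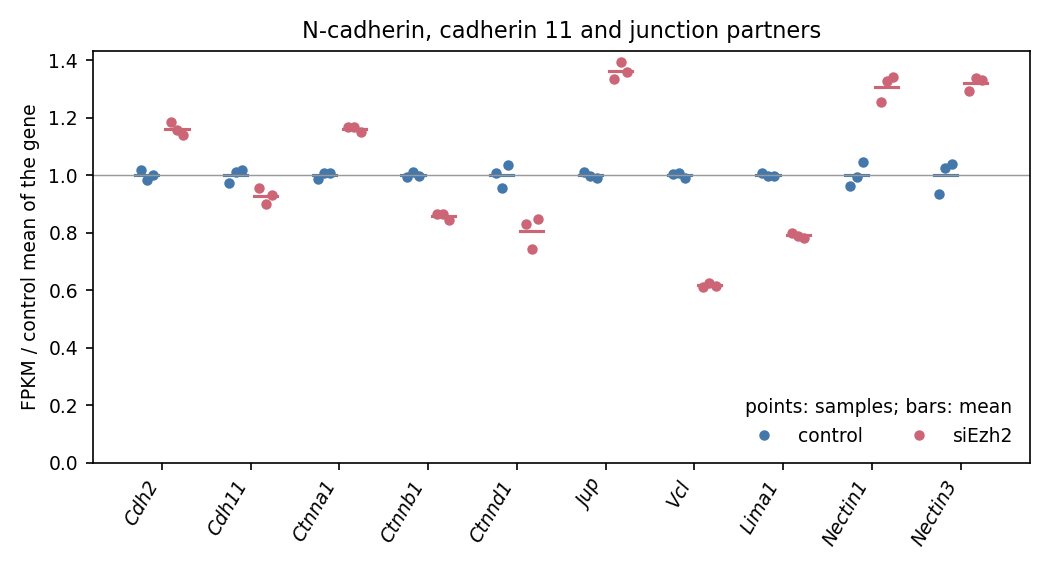
FPKM divided by the control mean of each gene (y axis) for Cdh2, Cdh11, catenins and other junction genes; points are samples and bars are group means, blue for 3 control and red for 3 siEzh2 samples. Cdh2 and Ctnna1 both lie at 1.16, above their control samples, while Ctnnb1, Ctnnd1, Vcl and Lima1 lie below them.

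Transcription factors known to repress E-cadherin in epithelial-mesenchymal transition had 2 of 7 tested genes higher and 3 lower. E-cadherin itself (Cdh1) had only 9 reads over the 6 samples here. Snai2 rose from 23.5 ± 1.21 to 30.1 ± 1.95 FPKM and Zeb2 from 7.52 ± 0.0711 to 9.19 ± 0.167 FPKM, whereas Twist1 fell from 17.1 ± 0.324 to 12.3 ± 0.848 FPKM (SD, n = 3 each, limma adjusted p = 0.00485, 0.00136 and 0.00117). Tcf4 fell by 0.15 on the log2 scale. Of 8 tested regulators of promoter choice in the protocadherin clusters, such as the boundary factor Ctcf and cohesin, Wapl, which releases cohesin, was higher and none was lower. Wapl passed at a log2 fold change of 0.14 (limma adjusted p = 0.0402) and lost the call without any 1 of the 6 samples (adjusted p = 0.0515 to 0.114).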

How the data were processed

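RNA from 3 control and 3 siEzh2 samples was sequenced from TruSeq Stranded mRNA libraries. The authors deposited 1 table of FPKM per sample, per the file headers. Per the submitters' processing notes, Trimmomatic, HISAT2, HTSeq and Cufflinks were used with mm10. The sources used here give no versions, strand setting or handling of ambiguous reads. Groups came from sample titles. Gene models were GENCODE M21, which held 27434 of the 27502 gene IDs (99.8%).

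limma 3.58.1 (R 4.3.3) was run on log2(FPKM + 1) for genes whose mean reached 1 FPKM in either group, with Benjamini-Hochberg adjustment over all tested genes. FPKM multiplied by exon length fell in equal steps, so whole reads were recovered. In each sample 98.5% to 98.6% of values were whole within 0.02. limma-voom on these reads called 6230 of 11862 genes. A count of 0 allows up to 3 reads, or 0.160 to 0.187 CPM, which covers counting error only. Other alternatives changed the pseudocount, filter, normalization, variance settings, replicate block, minimum change and samples used. The tests were tried on simulated data.

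Members and lists were chosen with earlier results of these data known. Named were every tested member, members whose mean reached 0.1 FPKM, and per partner list up to 4 called genes with the largest change, plus the core catenins. Promoter windows came from RefSeq (GRCm38.p6). Sequences of chromosome 18 are not reported here.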

Additional observations from a re-analysis of the deposited data

How the results depend on the processing

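With 7 members called higher and 3 lower by limma on log2(FPKM + 1), no called gene that the text names changed direction under any alternative run. Among members not called, Pcdhga7 and Pcdhgb6 changed sign, with log2 fold changes of −0.05 to 0.07 and −0.08 to 0.01 when 1 sample was left out, and so did Pcdhga7 with limma-voom and quantile normalization (−0.04). limma-voom on genes with at least 30 reads, chosen after seeing the data, called 11 higher and 5 lower, and 6 of these calls were for members under the filter of 1 FPKM. limma-voom on the genes of the limma test called 6 higher and 5 lower, adding Cdh11 and Pcdh19 and losing Pcdhga2. A minimum change of 1.5 times on the log2(FPKM + 1) scale left 1 member higher and 0 lower. It left 0 partner genes higher and 1 lower (Vcl), against 14 and 15 without it. That scale makes changes of low genes smaller, and in FPKM Pcdhb17 rose 1.75 times and Pcdh10 1.56 times. On log2(FPKM + 0.1) with a filter of 0.1 FPKM, Fat1, Ret and Wapl also lost their calls (limma adjusted p = 0.0764, 0.0719 and 0.101), and Adam15 came to the threshold. That fit called 3 of the 9 genes of cleavage and turnover higher, where the main test called 4. Leaving out each sample in turn gave 6 to 7 members higher and 2 to 3 lower, and 10 to 12 partner genes higher and 13 to 15 lower. These ranges hide exchanges among members. Without siEzh2 sample 3, Pcdhga2, Pcdh17 and Pcdhgc5 lost their calls while Pcdhga5 was called. Without siEzh2 sample 1, Pcdh17 and Pcdhgc5 lost theirs while Pcdhgb2 was called. Without control sample 2, Pcdhga2 lost its call while Pcdhga3 was called. The log2 fold change of Ezh2 was −1.13, and −1.16 to −1.09 without 1 sample.

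The labels number the samples of both groups, but same-numbered samples deviated together only weakly (r = 0.0243 to 0.0695 across genes), so the numbers were not taken as pairs, although 6 of 6 samples correlated best with their own number. With the replicate block 6 members were higher and 3 lower, 11 partner genes higher and 14 lower, and Pcdhga2 was the only member to lose its call (limma adjusted p = 0.0797), while Fat1 (0.0687), Ret (0.0593) and Wapl (0.0726) lost theirs among named partners. Depth limits the 25 members with fewer than 30 reads over the 6 samples.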

Other observations

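Other members of the cadherin superfamily, which the symbol rule left out, were mostly low. Among 21 such genes, 5 were tested, 2 of them higher and 2 lower. Fat1, a giant protocadherin of cell polarity and by level second only to Cdh2 in the whole superfamily as examined here, had 61.0, 60.3 and 58.4 FPKM in control and 64.3, 66.1 and 67.7 FPKM in siEzh2 samples. It rose 1.10 times with no overlap (limma adjusted p = 0.0241), and did not pass without control sample 2 (adjusted p = 0.0602) or 3 (0.0778) or siEzh2 sample 2 (0.0656) or 3 (0.0666). Fat4, the receptor of the Dachsous ligands, fell 1.39 times, from 2.02 ± 0.1005 to 1.45 ± 0.0679 FPKM (SD, n = 3 each, limma adjusted p = 0.00196). Cdhr1, a cadherin of photoreceptors, fell 1.55 times to 2.09 ± 0.328 FPKM (limma adjusted p = 0.0130). Ret, a receptor tyrosine kinase with cadherin-like domains, rose 1.43 times to 1.46 ± 0.111 FPKM (SD, n = 3, limma adjusted p = 0.0260). Leaving out control sample 2 (adjusted p = 0.0532) or 3 (0.0672), or siEzh2 sample 1 (0.0561) or 2 (0.0778), ended that call.

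The desmosomal cadherins Dsc2 and Dsc3, chosen after their values were seen, lay under 1 FPKM. Dsc2 had 0.219 ± 0.0900 FPKM in control and 0.464 ± 0.0413 FPKM in siEzh2 samples, and Dsc3 had 0.0631 ± 0.0248 and 0.189 ± 0.0261 FPKM (SD, n = 3 each). Both were called higher by limma-voom on genes with at least 30 reads (adjusted p = 0.00239 and 0.00461). The limma fit on log2(FPKM + 0.1) with a filter of 0.1 FPKM called Dsc3 (adjusted p = 0.0131) but not Dsc2 (0.0528). Dsc3 passed that filter only through its siEzh2 mean, so it had to be higher to be tested at its control level.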
